A study of Bos taurus with 6 samples.

Results

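Solute carriers are the membrane proteins through which sugars, amino acids, metals, ions, lactate and vitamins cross the plasma membrane and the membranes of vesicles, lysosomes, the Golgi apparatus and the endoplasmic reticulum. The set described here holds every row of the authors' table of differently expressed transcripts whose gene symbol starts with SLC and a digit, without the mitochondrial carriers of the SLC25 family. It has 50 transcripts of 49 genes, out of 5288 transcripts of 5206 genes. Longissimus muscle RNA, depleted of ribosomal RNA, was sequenced from Qinchuan cattle, a Chinese breed, at 2 stages. The groups were 3 embryos at 90 d after fertilization and 3 adult animals at 24 M after birth, all from a slaughterhouse and with no treatment named. For each transcript the table gives 1 FPKM value per stage, that is, fragments per kilobase of transcript, scaled to the depth of the library, as the authors' value for the stage.

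In skeletal muscle, glucose enters through facilitative GLUT carriers of the SLC2 family, of which GLUT4 moves from vesicles to the cell surface in response to insulin and contraction. Lactate and protons leave glycolytic fibres and enter oxidative ones through monocarboxylate transporters of the SLC16 family. Amino acids are taken up by sodium-coupled carriers and by exchangers, and zinc, copper and iron are kept in balance by carriers that work in opposite directions across the same membranes, such as the ZnT (SLC30) and ZIP (SLC39) families. Many solute carriers are not at the cell surface at all, but supply the Golgi apparatus with nucleotide sugars or empty the lysosome of breakdown products.

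Of the 50 transcripts, 45 had a higher FPKM in adult muscle and 5 in the embryo. The median log2 fold change, adult over embryo, was 2.92, with a lower quartile of 1.64 and an upper quartile of 3.80. This is the pattern of the table as a whole, in which 90.3% of the transcripts had a higher adult FPKM and 9.68% a lower one, and the median was 2.71. The share of solute carriers on each side is thus near the background and is not a result about solute carriers. Every transcript in the table is at least 2-fold apart or at 0 in a stage, because the authors listed only those that they called different. Solute carriers outside the table were not analysed here, and the counts say nothing of how many carriers changed. With 1 value per stage, the variation between animals is unknown and the stages could not be compared by a test. The number of fragments behind a value is not given in the sources used here, so the precision of single values is unknown. In whole tissue, fewer cells of a type and less RNA per cell cannot be told apart.

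The direction depends on how the stages are set on one scale. The paper also reports that the libraries differed between the stages. In the embryo a smaller share of reads mapped, and of the mapped reads fewer fell in exons and more in introns. The bearing of these differences on the FPKM values was not tested. The summed FPKM of the table was 70749.5 in the embryo and 674416 in adult muscle. Cytosolic ribosomal proteins, with 72 transcripts that were all higher in the adult before centring, had a median log2 fold change of 2.38. For a housekeeping list, drawn up with 31 genes, the median was 4.31. It rests on the 19 that have a row, all higher in the adult, from 1.16 for EEF1A1 to 6.79 for G3PDH. Its enzymes of energy metabolism, SDHA (4.73), PGK1 (5.04), GPI (5.77) and G3PDH, all lie above that median, and its other genes on both sides. RPLP0 is in both lists, so the lists are not independent. Centring on the ribosomal proteins left 30 solute carriers higher, against 58.7% of the table. Scaling both stages to the same FPKM total, a shift of 3.25, left 18 higher, against 35.1% of the table, and centring on the housekeeping list left 8, against 15.9%. Those 8 are SLC9A2, SLC1A3, SLC43A2, SLC19A2, SLC48A1, SLC37A4, SLC38A2 and SLC35B1. Of them, SLC9A2, SLC1A3, SLC19A2, SLC48A1 and SLC37A4 had an embryonic FPKM below 1. With a pseudocount of 1, SLC1A3 (2.03) and SLC19A2 (2.08) fell below even the shift of 2.38, which was itself taken without a pseudocount. The 3 shifts were taken only from transcripts called different, so a reference gene that did not change cannot enter them. Whether the shifts are too large for that reason was not tested. All shifts lower every value, so a member that is lower in adult muscle without them stays lower, and the order of the members and the ratios between them within a stage are not affected. Below, "higher" and "lower" refer to the FPKM values as deposited, and the shifts under which a class turns are given beside it. As deposited, 90.3% of the table was higher in the adult. A small class or list that is all higher is thus near that background and is not by itself a result about it.

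Solute carriers were expressed at low to moderate levels. Their embryonic FPKM ran from 0.0631 to 6.66 with a median of 1.10, against 1.77 over the table. Their adult FPKM ran from 0.260 to 68.6 with a median of 4.84, against 11.0 over the table. In the embryo 23 of the 50 transcripts were below an FPKM of 1, so that the size of their fold change rests on a low value, and in the adult 4 were. None was listed at 0. Together they made up 0.0918% of the summed FPKM of the table in the embryo and 0.0756% in the adult.

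**Figure D1:**
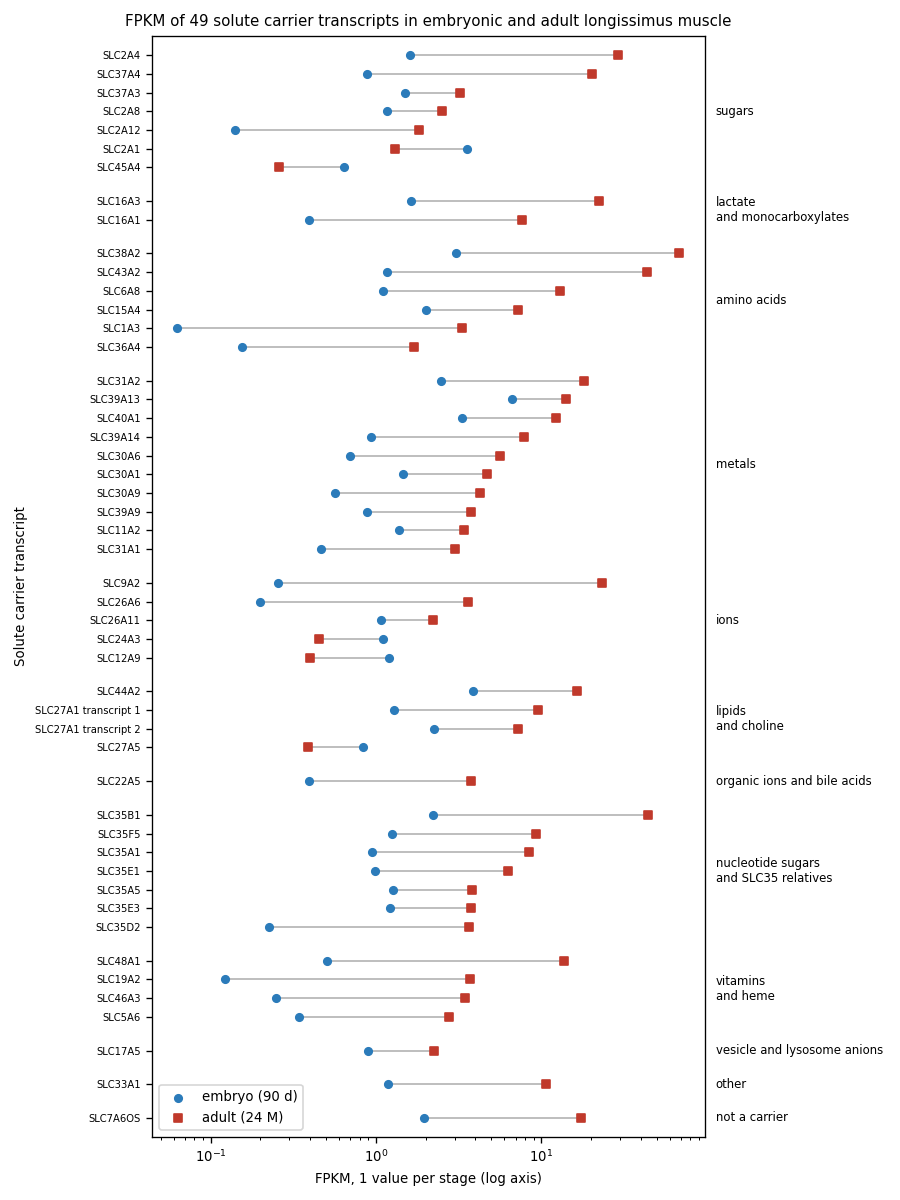
FPKM of 49 of the 50 solute carrier transcripts on a log axis, with the embryo as circles and the adult as squares, 1 deposited value per stage and transcript, grouped by substrate class and ordered by adult FPKM within a class. The adult square lies to the right of the embryonic circle in 44 rows and to the left in SLC2A1, SLC45A4, SLC24A3, SLC12A9 and SLC27A5; this split becomes 8 and 41 after centring on the housekeeping list.

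Among the 50 listed transcripts, the leading carriers differed between the stages. Carriers that were not called different have no row and could not enter this ranking. In the embryo, SLC39A13, a zinc carrier of the ZIP family, had the highest FPKM at 6.66, followed by the choline carrier SLC44A2 at 3.87, the glucose carrier SLC2A1 at 3.56, the iron exporter SLC40A1 at 3.33 and the amino acid carrier SLC38A2 at 3.04. In the adult, SLC38A2 came first with 68.6, followed by SLC35B1, a carrier of the endoplasmic reticulum, with 44.2, the amino acid carrier SLC43A2 with 43.4, the glucose carrier SLC2A4 with 29.3 and the sodium/proton exchanger SLC9A2 with 23.3. Only SLC38A2 was among the first 5 in both stages. The same overlap was not computed for other sets of transcripts, so it has no background to be set against. The first 5 held 31.5% of the summed solute carrier FPKM in the embryo and 41.0% in the adult. Across the 50 transcripts the levels of the stages had a Spearman rho of 0.43, against 0.63 over the table. The table covers a wider range, with a highest embryonic FPKM of 13662.7 against 6.66 for the members, so these values of rho are not directly comparable. They are given as a description, because all transcripts come from the same animals, with 1 value per stage.

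Among the sugar carriers, the basal and the insulin-dependent glucose carrier went in opposite directions as deposited, but not after centring on the housekeeping list, where both were lower in the adult (-0.13 for SLC2A4 and -5.75 for SLC2A1 in log2). SLC2A4, which encodes GLUT4, had an FPKM of 1.62 in the embryo and 29.3 in adult muscle, an 18.1-fold higher adult value (log2 fold change 4.18). SLC2A1, which encodes GLUT1, the carrier of basal glucose uptake in most dividing and fetal cells, had 3.56 in the embryo and 1.31 in adult muscle, 2.72-fold lower (log2 fold change -1.44). The embryo thus had less SLC2A4 than SLC2A1, with a ratio of 0.455, and the adult more, with a ratio of 22.4. This ratio is taken within a stage and is unaffected by the scaling. SLC2A4 lies on chromosome 19 from 27616216 to 27622206 and SLC2A1 on chromosome 3 from 103902889 to 103931096 in bosTau7, as the authors' loci give them.

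Another carrier of that family, SLC2A12 (GLUT12), which is also expressed in insulin-sensitive tissue, had an FPKM of 0.140 in the embryo and 1.83 in adult muscle (log2 fold change 3.71). Its level was far below that of SLC2A4, which stood at 11.5 times SLC2A12 in the embryo and 16.0 times in the adult. Its locus overlaps that of TBPL1 in the table. SLC2A8, an intracellular hexose carrier, was close to the 2-fold limit of the table with 1.17 and 2.51 (log2 fold change 1.09).

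The glucose-6-phosphate carrier of the endoplasmic reticulum, SLC37A4, had 0.879 in the embryo and 20.4 in adult muscle (log2 fold change 4.54). Its relative SLC37A3 had 1.50 and 3.25 (log2 fold change 1.12). SLC45A4, of a family of proton-coupled sugar carriers, was low in both stages, with 0.645 in the embryo and 0.260 in adult muscle (log2 fold change -1.31). In all, 5 of 7 sugar carriers were higher in adult muscle, against 90.3% of the table. The class median was 1.12, which turns negative under each of the 3 shifts. The class fell into SLC2A4, SLC2A12 and SLC37A4, each over 13-fold higher in the adult, and 4 carriers within 2.72-fold. The fructose carrier SLC2A5 and the neuronal glucose carrier SLC2A3 have no row in the table.

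Of the genes that handle glucose beyond the membrane, 11 of 23 symbols are listed, and all 11 were higher in the adult, against 90.3% of the table. Their median was 3.13 in log2, negative after scaling to equal totals or centring on the housekeeping list. PYGM, the muscle glycogen phosphorylase, had 32.0 in the embryo and 4224 in adult muscle, and TXNIP, which promotes removal of GLUT carriers from the cell surface, had 17.8 and 965. GYS1, the muscle glycogen synthase, had 5.64 and 130.0, and UGP2, which makes the UDP-glucose for it, had 2.87 and 127. Enzymes of glycogen were thus among the most abundant genes of this list in the adult. TBC1D4, which restrains GLUT4 vesicles until insulin signals, had 1.65 and 14.5, and HK2, the hexokinase that traps the glucose taken up, had 1.63 and 13.1. In adult muscle, these enzymes and regulators of the glucose pathway thus lay on both sides of the FPKM of SLC2A4.

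Both lactate carriers in the table were higher in adult muscle. SLC16A3 (MCT4), the form that exports lactate from glycolytic fibres, had an FPKM of 1.62 in the embryo and 22.3 in adult muscle (log2 fold change 3.78). SLC16A1 (MCT1), the form of oxidative fibres and of most other cells, had 0.392 and 7.71 (log2 fold change 4.30). SLC16A3 was the more abundant in both stages, at 4.14 times SLC16A1 in the embryo and 2.90 times in the adult. Both stay higher after centring on ribosomal proteins and after scaling to equal totals, and both turn after centring on the housekeeping list, SLC16A1 to -0.0089. BSG, the chaperone basigin that brings MCT1 and MCT4 to the surface, had 24.7 and 287, above both carriers in either stage. LDHA and LDHB, the subunits of lactate dehydrogenase, had 19.1 and 3143 and 47.3 and 312. CA3, the carbonic anhydrase of slow muscle fibres, had 90.1 in the embryo and 2924 in adult muscle. Of the 11 symbols of lactate partners 5 are listed, all of them higher, with a median of 5.02, which stays positive under the 3 shifts.

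All 6 amino acid and amino acid derivative carriers were higher in the adult stage, against 90.3% of the table. The class median was 4.03, which turns to -0.28 after centring on the housekeeping list and stays positive under the other shifts. SLC38A2 (SNAT2), the sodium-coupled carrier of small neutral amino acids such as alanine and glutamine, ranked 5 among the members in the embryo and 1 in adult muscle, with an FPKM of 3.04 in the embryo and 68.6 in adult muscle (log2 fold change 4.50). SLC43A2 (LAT4), which moves leucine and other large neutral amino acids down their gradient, had 1.16 and 43.4 (log2 fold change 5.22). These 2 carriers made up most of the adult level of the class. SLC38A2 stood at 2.62 times SLC43A2 in the embryo and at 1.58 times in the adult.

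SLC6A8, the creatine carrier through which muscle takes up the substrate of creatine kinase, had 1.10 in the embryo and 13.1 in adult muscle (log2 fold change 3.57). Creatine kinase of the muscle, CKM, had 169 and 7471 and its mitochondrial partner CKMT2 had 0.500 and 2651, whereas the brain form CKB was lower in the adult with 17.0 and 1.28. GATM and GAMT, the enzymes that make creatine, had 0.423 and 6.16 and 8.14 and 201. Of the 9 symbols for creatine and carnitine handling, 6 are listed, 5 of them higher, with a median of 4.25, which turns negative after centring on the housekeeping list.

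The other amino acid carriers were less abundant. SLC1A3 (EAAT1), a glutamate carrier known best from astrocytes, had the lowest embryonic value of all the members, 0.0631, and 3.33 in the adult, so that its log2 fold change of 5.72 rests on a value close to 0. SLC15A4, which carries histidine and dipeptides out of the lysosome, had 2.01 and 7.23 (log2 fold change 1.85), and SLC36A4, a high-affinity carrier of proline and tryptophan, had 0.155 and 1.70 (log2 fold change 3.46). With a pseudocount of 1, which damps such low values, the class median was 2.38. Of the 13 RefSeq symbols that start with SLC7, SLC7A6OS alone has a row, and SLC3A1 and SLC3A2, the heavy chains that pair with SLC7 carriers, have none.

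The genes that sense amino acid supply were also higher where they are listed, 11 of 11, against 90.3% of the table. Their median was 3.61 on the log2 scale, which becomes negative after centring on the housekeeping list. ATF4, the transcription factor of the amino acid response, had 24.3 in the embryo and 1500 in adult muscle, and GLUL, glutamine synthetase, had 9.50 and 649. LAMTOR5, a subunit of the Ragulator complex that anchors mTORC1 to the lysosome, had 4.85 and 121, and LAMTOR4 had 19.6 and 77.9. These 4 had the highest adult FPKM of the 11 listed among 21 symbols, and all 4 were above SLC38A2 in the adult.

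All 10 metal carriers were more abundant in adult muscle, against 90.3% of the table, but by less than most amino acid carriers. Their log2 fold changes lay between 1.09 and 3.07 with a median of 2.39, which becomes 0.0096 after centring on ribosomal proteins and negative under the other shifts. None of the 10 stayed higher after scaling to equal totals, whereas 5 of the 6 amino acid carriers did, against 35.1% of the table. The classes are small, and the difference between them was not tested. Metals were the class with the highest summed FPKM in the embryo, and also the class with the most transcripts.

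Zinc carriers of both families were among them. SLC39A13 (ZIP13), a carrier of Golgi and vesicle membranes that in humans is mutated in a form of Ehlers-Danlos syndrome, had 6.66 in the embryo and 14.1 in adult muscle (log2 fold change 1.09). SLC39A14 (ZIP14), a surface carrier of zinc, manganese and iron, had 0.941 and 7.89 (log2 fold change 3.07). The ratio of SLC39A14 to SLC39A13 was 0.141 in the embryo and 0.558 in adult muscle. SLC39A9 (ZIP9) had 0.888 and 3.76 (log2 fold change 2.08). The order of the 3 ZIP carriers was thus the same in both stages. On the side that removes zinc from the cytosol, SLC30A1 (ZnT1), the exporter of the plasma membrane, had 1.46 and 4.73 (log2 fold change 1.69), and SLC30A6 (ZnT6), a subunit of the Golgi carrier, had 0.695 and 5.65 (log2 fold change 3.02). SLC30A9, a ZnT relative that in human cells acts in mitochondria, had 0.565 and 4.29 (log2 fold change 2.93). ZIP and ZnT carriers thus overlapped in both their levels and their fold changes. MTF1, the zinc-sensing transcription factor, had 0.184 in the embryo and 2.80 in adult muscle, and no metallothionein of the 4 symbols searched has a row.

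Copper and iron carriers were higher in the adult too. SLC31A2, a copper carrier of endosomes and lysosomes, had 2.49 and 18.2 (log2 fold change 2.87), and SLC31A1 (CTR1), the copper importer of the plasma membrane, had 0.464 and 3.02 (log2 fold change 2.70). The pair lie side by side on chromosome 8 in bosTau7, with 1903 bp between their loci, the sole members within 100000 bp of each other, and their ratio was 5.36 in the embryo and 6.03 in adult muscle. The copper chaperones ATOX1 and CCS had 14.6 and 69.3 and 6.89 and 32.6, and both were above the importer SLC31A1 in either stage. For iron, SLC40A1 (ferroportin), the exporter, had 3.33 and 12.2 (log2 fold change 1.88), and SLC11A2 (DMT1), an importer, had 1.37 and 3.40 (log2 fold change 1.31). The exporter was the more abundant in both stages, with a ratio to SLC11A2 of 2.43 in the embryo and 3.60 in adult muscle. The ferritin chains that store iron, FTH1 and FTL, had 134 and 823 and 45.8 and 350.4. Of 23 symbols for metal binding and transport outside the SLC families, 7 are listed and all 7 were higher, with a median of 2.61, which turns negative after scaling to equal totals or centring on the housekeeping list.

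The ion carriers held both the largest and the most negative fold change of the members without a pseudocount. With a pseudocount of 1, SLC43A2 (4.36) passed SLC9A2 (4.27) and SLC2A1 (-0.98) passed SLC12A9 (-0.65). SLC9A2 (NHE2), a sodium/proton exchanger best known from the apical membrane of epithelia, had an FPKM of 0.257 in the embryo and 23.3 in adult muscle, 90.7-fold higher (log2 fold change 6.50). Its rank among the 50 went from 43 to 5. SLC9A2 lies on chromosome 11 from 7324686 to 7416784 in bosTau7.

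The anion exchanger SLC26A6, which exchanges chloride for bicarbonate and oxalate, had 0.201 in the embryo and 3.59 in adult muscle (log2 fold change 4.16). SLC26A11, a sulfate and chloride carrier, had 1.08 and 2.23, and its log2 fold change of 1.05 was the smallest among the members higher in the adult. In the other direction, SLC12A9, a member of the cation-chloride cotransporter family whose own substrate is debated, had 1.19 and 0.398, and its log2 fold change was -1.59. SLC24A3 (NCKX3), which exchanges sodium for calcium and potassium, had 1.11 and 0.452 (log2 fold change -1.29). In sum, 4 of 6 were higher, against 90.3% of the table, with a median of 1.54, which turns negative under each shift. No row exists for the bicarbonate carriers of SLC4, the sodium/calcium exchangers of SLC8, or the phosphate carriers of SLC20.

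These carriers use gradients that ATPases maintain. Of 23 subunits of the sodium pump and of the vesicular proton pump, 18 are listed. Of these, 17 were higher and 1 lower in the adult, against 90.3% of the table higher. Their median was 2.79, which turns negative after scaling to equal totals or centring on the housekeeping list. FXYD1 (phospholemman), the regulator of the sodium pump in muscle, had 16.7 in the embryo and 490.4 in adult muscle. ATP1B2, a beta subunit abundant in glia, was the exception with 0.670 in the embryo and 0.0408 in adult muscle. Of the proton pump, ATP6V1G1 had 17.4 and 119, ATP6V1F 4.71 and 117, and ATP6V1E1 8.28 and 87.8.

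Carriers of lipid fuels and choline were higher in adult muscle apart from 1. SLC27A1 (FATP1), the fatty acid transport protein of muscle and fat, has a pair of transcripts from the same locus on chromosome 7, the sole gene among the members with more than 1 row. ENSBTAT00000022311 had 1.28 in the embryo and 9.60 in adult muscle (log2 fold change 2.91), and ENSBTAT00000055878 had 2.24 and 7.23 (log2 fold change 1.69). The first took 36.4% of their summed FPKM in the embryo and 57.0% in the adult. Because reads from shared exons are divided between the transcripts by the quantification, that division is uncertain. The sum was 3.52 in the embryo and 16.8 in the adult. SLC27A5, a relative that is mainly a liver enzyme of bile acid conjugation, was low in both stages with 0.835 and 0.386 (log2 fold change -1.11).

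SLC44A2, a choline carrier, had 3.87 in the embryo and 16.5 in adult muscle (log2 fold change 2.09). The class had 3 of 4 transcripts higher, against 90.3% of the table, and a median of 1.89, which turns negative under each shift. SLC22A5 (OCTN2), which brings in the carnitine needed to carry fatty acids into mitochondria, had 0.392 and 3.76 (log2 fold change 3.26). It was the sole member of its family with a row, out of 21 RefSeq symbols of SLC22. CPT2, the carnitine palmitoyltransferase of the inner mitochondrial membrane, had 1.29 and 14.3.

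All 7 transcripts of the SLC35 family, carriers of the Golgi apparatus and endoplasmic reticulum, were higher in the adult, against 90.3% of the table. Their median was 2.89, which turns negative after scaling to equal totals or centring on the housekeeping list. SLC35B1, which in human cells exchanges ATP for ADP across the membrane of the endoplasmic reticulum, had 2.20 in the embryo and 44.2 in adult muscle (log2 fold change 4.33), and was second among all members in the adult. Among carriers of nucleotide sugars, SLC35A1, which brings CMP-sialic acid into the Golgi apparatus, had 0.946 and 8.48 (log2 fold change 3.16), SLC35D2, a carrier of UDP-N-acetylglucosamine, had 0.227 and 3.69 (log2 fold change 4.02), and SLC35A5 had 1.28 and 3.84 (log2 fold change 1.59). The locus of SLC35A1 overlaps that of RARS2 in the table. The relatives without an established substrate, SLC35F5, SLC35E1 and SLC35E3, had 1.25 and 9.28, 0.994 and 6.26, and 1.22 and 3.75. With SLC35B1 apart, the other 6 of these 7 transcripts lay between 3.69 and 9.28 in the adult.

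The 4 carriers of vitamins and heme were the class with the lowest embryonic levels, with 0.504 as the highest, and had the largest class median, 4.29. That median stays positive under the shifts to ribosomal proteins and to equal totals and becomes -0.014 after centring on the housekeeping list, and with a pseudocount of 1 it is 1.96, below the 2.38 of the amino acid carriers. SLC48A1 (HRG1), which releases heme from endosomes and lysosomes, had 0.504 in the embryo and 13.8 in adult muscle (log2 fold change 4.78). SLC19A2, a thiamine carrier, had 0.122 and 3.73 (log2 fold change 4.93), SLC46A3, a lysosomal relative of the folate carrier, had 0.248 and 3.48 (log2 fold change 3.81), and SLC5A6, the sodium-dependent carrier of biotin and pantothenate, had 0.342 and 2.77 (log2 fold change 3.02). In the adult SLC48A1 thus stood above the others of its class, which were close together.

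Nucleoside carriers have no row in the table: none of the 3 RefSeq symbols of SLC28 and none of the 4 of SLC29 is listed, so that no value can be given for this substrate. Of 17 symbols for the salvage of nucleosides inside the cell, 7 are listed, all of them higher in the adult, with a median of 3.02, which turns negative after scaling to equal totals or centring on the housekeeping list. PNP, purine nucleoside phosphorylase, had 8.47 in the embryo and 146 in adult muscle, AMPD1, the AMP deaminase of muscle, had 0.954 and 78.4, APRT had 5.84 and 27.4, and ADA, adenosine deaminase, had 2.01 and 16.4.

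The remaining members do not share a class with others. SLC33A1, which brings acetyl-CoA into the endoplasmic reticulum, had 1.18 and 10.7 (log2 fold change 3.18), and SLC17A5 (sialin), which exports sialic acid from the lysosome, had 0.899 and 2.25 (log2 fold change 1.32). SLC7A6OS fits the rule by its symbol but is not a carrier: it is the gene on the strand opposite SLC7A6, and its yeast relative takes part in the nuclear import of RNA polymerase II. It had 1.95 and 17.3 (log2 fold change 3.15). The library protocol keeps strand, but whether the quantification used it is not given in the sources used here, so that reads of SLC7A6 and SLC7A6OS may not be told apart. Without SLC7A6OS, 44 transcripts were higher and 5 lower.

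**Figure D2:**
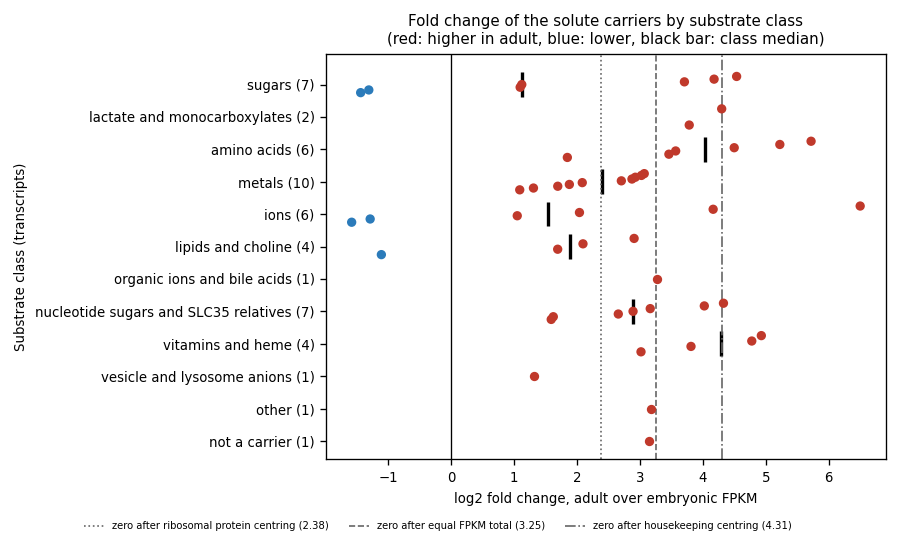
Log2 fold change, adult over embryonic FPKM, of each transcript by substrate class, with the class median as a black bar for classes of at least 3 transcripts and 3 vertical lines at the values that become 0 after each rescaling. Red points are higher and blue points lower in the adult. Medians run from 1.12 for sugars to 4.29 for vitamins and heme, all 7 turn negative after centring on the housekeeping list, and all 10 metal carriers lie left of the line for equal totals. Of all transcripts of the table, 35.1% have a fold change to the right of that line.

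Set against each other within a stage, the substrate classes stood in a different order, and these shares do not depend on the scaling. Metals held 29.0% of the summed solute carrier FPKM in the embryo and 15.2% in the adult, while amino acid carriers held 11.6% and 26.95%. Sugars went from 14.6% to 11.6%, and lipids and choline from 12.7% to 6.62%. Lactate carriers went from 3.10% to 5.90%, the SLC35 family from 12.5% to 15.6%, and vitamins and heme from 1.87% to 4.67%. Ions held 7.77% and 6.85%. The metal share in the embryo rests in part on SLC39A13, which alone held 10.3%, and the amino acid share in the adult on SLC38A2, which alone held 13.5%. A share also depends on class size: metals is the largest class with 10 transcripts, against 6 for amino acids. Carriers that were not called different are not in the sums, so these are not shares of all solute carriers. With 1 value per stage, the variation of these shares between animals is unknown.

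**Figure D3:**
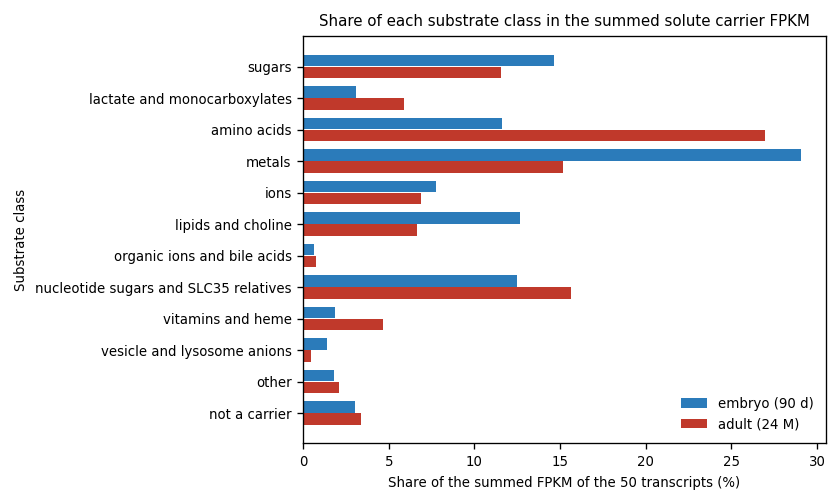
Share of each substrate class in the summed FPKM of the 50 transcripts, in percent, for the embryo and the adult, 1 bar per stage with no error because the table has 1 value per stage. Metals led in the embryo with 29.0% and amino acid carriers in the adult with 26.95%. The shares are not adjusted for class size, and metals is the largest class with 10 transcripts, against 6 for amino acids.

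The 5 transcripts lower in adult muscle came from 3 substrate classes and were between 2.16-fold and 3.00-fold apart. SLC12A9, SLC2A1, SLC45A4, SLC24A3 and SLC27A5 had log2 fold changes between -1.59 and -1.11, and SLC2A1 was the sole one among them with an FPKM above 1 in both stages. The 5 members nearest to the 2-fold limit of the table were SLC26A11, SLC27A5, SLC39A13, SLC37A3 and SLC2A8. Where both stages exceeded an FPKM of 1, 24 transcripts were higher in the adult and 1 was lower. Among all listed transcripts, 3307 pass this minimum, but their split was not computed. The 24 and 1 thus have no background to be set against.

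By the GO terms in the authors' table, 17 member transcripts are annotated to the plasma membrane, 16 of them higher and 1 lower in the adult. That is 94.1%, against 87.6% of the 348 transcripts of the table with that term, and the median log2 fold changes were 3.07 and 2.57. Those annotated to the Golgi apparatus numbered 7, with a median of 3.02, against 2.45 in the table, and those annotated to the endoplasmic reticulum 7, with 2.04 against 2.68. The 4 annotated to the lysosome, SLC17A5, SLC26A11, SLC2A8 and SLC44A2, had a median of 1.21, against 2.66 for the 105 lysosomal transcripts of the table. SLC48A1, SLC46A3, SLC31A2 and SLC15A4, described above as carriers of the lysosome, lack the term. Their log2 fold changes of 4.78, 3.81, 2.87 and 1.85 are all above 1.21, so the lysosomal median depends on which members carry the term. The median for the Golgi apparatus and that for the plasma membrane turn negative after scaling to equal totals or centring on the housekeeping list, and those for the lysosome and the endoplasmic reticulum under each shift. The annotations overlap, and many members have no such term, SLC9A2 and SLC6A8 among them.

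The mitochondrial carriers left out of the set were more abundant in the adult. The 19 SLC25 transcripts, 18 of them (94.7%) higher and 1 lower against 90.3% higher in the table, had a median log2 fold change of 3.35 and an adult median FPKM of 13.0, against 2.92 and 4.84 for the other solute carriers. The SLC25 median becomes 0.96 and 0.095 after centring on ribosomal proteins and scaling to equal totals, and -0.96 after centring on the housekeeping list. In the embryo the medians were closer, 1.33 and 1.10. The summed FPKM of SLC25 was 67.6 in the embryo and 4900.4 in adult muscle, and that of the other carriers 64.9 and 510. SLC25A4, the adenine nucleotide carrier of muscle mitochondria, alone held 55.3% and 82.8% of the SLC25 sum, which without it was 30.2 and 844. The difference between the families was not tested.

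Every symbol of the members matched a symbol of the current RefSeq annotation of cattle (ARS-UCD2.0), which holds 318 protein-coding symbols of the same form. Of these 318 symbols 49 have a row, which means only that a transcript was called different. Among the larger families the counts ran from 7 of 27 for SLC35, 4 of 13 for SLC2 and 3 of 10 for SLC30 to 1 of 19 for SLC6 and 0 of 11 for SLC4. The share over all RefSeq symbols was not computed, so these counts are not a result about the families. A gene can also be listed under another name. SLC38A4, an amino acid carrier, appears as ATA3 with an FPKM of 0.194 in the embryo and 1.65 in adult muscle, and SLC35A2, the UDP-galactose carrier, as UGT with 1.15 and 2.58. The organic anion carriers SLCO1A2 and SLCO3A1, whose symbols the rule does not take, had 8.82 and 0.761 and 0.207 and 1.40.

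Markers of other cell types moved with the stage. Of 9 skeletal muscle markers 6 are listed, with a summed FPKM of 3500.3 in the embryo and 92187 in adult muscle. All 6 were higher as deposited. The log2 fold changes of TNNC2 (3.95) and DES (3.95) turn negative after centring on the housekeeping list. Those of MYLPF (5.28), CKM (5.47), MYH7 (7.08) and MB (9.42) stay positive under the 3 shifts. Cartilage markers (4 of 5 listed, summed FPKM 19.8 and 0.682) and Schwann cell markers (3 of 5, 18.9 and 0.689) were lower in the adult, and the fat cell marker ADIPOQ (1 of 5, 0.252 and 6.75) was higher, also under the 3 shifts. Endothelial markers (3 of 5, 10.3 and 35.9) were higher as deposited, but the log2 fold changes of VWF (2.05), TEK (2.30) and KDR (1.43) turn negative under each shift. None of 7 markers of red cell precursors, which carry SLC2A1 in humans, and none of 5 of macrophages, which carry SLC40A1, has a row. Because only transcripts called different are listed, a missing row does not tell whether these cells were present or differed between the stages. The part of these cells in the values of the solute carriers was not tested.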

How the data were processed

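Longissimus muscle of 3 embryos and 3 adult cattle was sequenced by the authors. They removed adapters with Trim Galore, mapped the reads to bosTau7 with TopHat2 2.0.14, and used Cufflinks to assemble and quantify transcripts. The deposited values are FPKM, 1 per stage, read as adult and embryonic from the column names, and cover only transcripts that the authors called different. The authors' columns of fold change, p-value, q-value and direction and their GO enrichment tables were not used. Loci are printed as deposited.

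Log2 fold changes are log2 of adult over embryonic FPKM, with no pseudocount, computed in Python 3.11.15 with pandas 2.3.3. Lists and classes are described by counts and medians, the latter for at least 3 transcripts. The summaries were tested on simulated data. Alternatives were pseudocounts of 1 and 0.1, FPKM minimums, a 4-fold minimum, distinct genes and 3 scalings. The members and lists were chosen with earlier results of these data known. The class of SLC7A6OS, the SLC25 sum without SLC25A4, the ratios between pairs and the carriers named as without a row were chosen after their values were seen. All members were to be named, but 1 is not reported here by name and enters only the counts, medians and shares. From each list, up to 4 genes with the highest adult FPKM and every gene lower in the adult were to be named, and others are examples chosen later.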

Additional observations from a re-analysis of the deposited data

How the results depend on the processing

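No paired analysis was possible because the table has 1 value per stage, and for the same reason no animal could be left out in turn. The 45 transcripts higher in adult muscle became 24 with an FPKM above 1 in both stages, 18 after scaling to equal totals and 8 after centring on the housekeeping list, in part by construction, since the first tests fewer transcripts and the others lower every value. The median of 2.92 became 2.04 with that FPKM minimum, 3.46 with a 4-fold minimum, 1.81 and 2.80 with pseudocounts of 1 and 0.1, and 0.53, -0.34 and -1.39 after centring on ribosomal proteins, scaling to equal totals and centring on the housekeeping list. Counting distinct genes, keeping exact matches to reference transcripts (all rows are), and, both chosen after seeing the data, leaving out SLC7A6OS or the members with overlapping loci changed neither by more than 0.1 in log2 or 1.5 times in count.

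A class median is given where it moved by over 0.1. With a higher-stage FPKM above 2 it was 4.50 for amino acids, 3.10 for ions and 2.09 for lipids and choline, and with an FPKM above 1 in both stages it was 1.69 for metals, 2.09 for lipids and choline and 2.26 for SLC35. With a 4-fold minimum it was 4.18 for sugars, 4.50 for amino acids, 2.90 for metals, 4.16 for ions, 2.50 for lipids and choline and 3.16 for SLC35, and over distinct genes 2.09 for lipids and choline. With a pseudocount of 1 it was 0.77 for sugars, 2.38 for amino acids, 1.53 for metals, 1.03 for ions, 1.60 for lipids and choline, 1.93 for SLC35 and 1.96 for vitamins and heme, and with 0.1 it was 3.92 for amino acids, 2.22 for metals and 3.73 for vitamins and heme. After centring on ribosomal proteins it was -1.26 for sugars, 1.65 for amino acids, 0.0096 for metals, -0.84 for ions, -0.49 for lipids and choline, 0.51 for SLC35 and 1.91 for vitamins and heme. After scaling to equal totals, in the same order, it was -2.13, 0.78, -0.86, -1.71, -1.36, -0.36 and 1.04, and after centring on the housekeeping list -3.19, -0.28, -1.92, -2.77, -2.42, -1.42 and -0.014.

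Of the 49 members reported by name, single ones turned under the shifts alone, by construction. Centring on ribosomal proteins turned 14, SLC26A11 (-1.34), SLC39A13 (-1.30), SLC2A8 (-1.29), SLC37A3 (-1.26), SLC11A2 (-1.08), SLC17A5 (-1.06), SLC35A5 (-0.79), SLC35E3 (-0.76), ENSBTAT00000055878 of SLC27A1 (-0.69), SLC30A1 (-0.69), SLC15A4 (-0.54), SLC40A1 (-0.51), SLC39A9 (-0.30) and SLC44A2 (-0.29). Scaling to equal totals turned 26, the same 14 in that order to -2.20, -2.17, -2.16, -2.13, -1.95, -1.93, -1.66, -1.63, -1.56, -1.56, -1.41, -1.38, -1.17 and -1.16, and SLC35E1 (-0.60), SLC31A1 (-0.55), SLC31A2 (-0.38), SLC35F5 (-0.36), ENSBTAT00000022311 of SLC27A1 (-0.35), SLC30A9 (-0.33), SLC5A6 (-0.24), SLC30A6 (-0.23), SLC39A14 (-0.18), SLC7A6OS (-0.10), SLC35A1 (-0.090) and SLC33A1 (-0.077). Centring on the housekeeping list turned 36, those 26 in that order to -3.26, -3.22, -3.21, -3.19, -3.00, -2.99, -2.72, -2.69, -2.62, -2.62, -2.46, -2.43, -2.23, -2.21, -1.65, -1.60, -1.44, -1.42, -1.40, -1.38, -1.29, -1.29, -1.24, -1.16, -1.15 and -1.13, and SLC22A5 (-1.04), SLC36A4 (-0.85), SLC6A8 (-0.74), SLC2A12 (-0.60), SLC16A3 (-0.53), SLC46A3 (-0.50), SLC35D2 (-0.29), SLC26A6 (-0.14), SLC2A4 (-0.13) and SLC16A1 (-0.0089).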
